A study of Mus musculus with 28 samples.

Results

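To describe how the transgenic tendon transcriptome differed once the phenotype was established, tail tendons of Fosl-2(Tg) mice were compared between stages. The comparison held every library labelled transgenic, 7 from mice at the established stage and 8 from mice at the early stage, which are 15 of the 28 libraries of the series. Each library was made from total RNA of the homogenized tail tendon fascicles of 1 mouse on a C57BL/6 background. All 15 mice carried a vector of the murine *Fosl2* gene, linked by a self-cleaving peptide to eGFP. It had inserted at random and was driven by H2Kb, an MHC class I promoter. Class I genes are active in most nucleated cells, so that expression of the transgene is not restricted to tendon cells. Early mice were 6 to 8 weeks old and established mice were older than 14 weeks. The early group was made up of 8 males, whereas the established group comprised 6 females and 1 male. Stage and age therefore cannot be told apart in any of the 15 mice, and sex is tied to both in 14 of them. The composition of the cohorts is confounded with stage. Where a named gene no longer passed the test (a false discovery rate of at most 0.05, below) in a fit of males alone (8 early mice and 1 established mouse), that value is given beside it. Genes on chromosomes X and Y were left out of the gene counts and fold changes below, but their reads count in the library totals and they were part of the FDR adjustment. Non-transgenic WT mice of the same background, 7 early (all male) and 6 established (5 females and 1 male), were used only to set the stage difference beside the same difference without the transgene.

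Tail tendon is built from fascicles of parallel type I collagen fibrils, which a sparse population of tendon fibroblasts (tenocytes) lays down and maintains together with small leucine-rich proteoglycans and glycoproteins. Procollagen chains are hydroxylated and folded in the endoplasmic reticulum, trimmed outside the cell by procollagen proteinases and joined by lysyl oxidases. The sheath around the fascicles contains vessels, nerves and resident macrophages. Fosl-2 (Fra-2) is a member of the AP-1 family of transcription factors, which bind DNA as dimers, and mice that overexpress it develop fibrosis and inflammation in several organs.

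Reads counted on genes summed to between 11668148 and 23859834 per early mouse and between 9664327 and 34236725 per established mouse. The library numbers in the labels ran from 52 to 63 in the early and from 64 to 77 in the established transgenic mice, so that stage and the numbering of libraries also cannot be told apart. The labelled sex matched the summed level of Y-linked genes in 28 of 28 libraries. In the established group, replicates 1 and 5 (the male) had the lowest collagen levels and replicates 6 and 7 the highest class II levels. Early replicate 1 differed from the other early mice in several genes named below. A change in bulk tissue can come from fewer cells of a type or from less RNA per cell, which cannot be told apart here.

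*Fosl2* itself (chr5), whose counts sum the endogenous gene and any matching transgene transcript, ranged from 63.4 to 156 CPM (median 87.1) in early and from 121 to 160.1 CPM (median 145) in established Fosl-2(Tg) mice. CPM are counts relative to library size after TMM scaling over the 28 libraries. The ranges overlapped, and the log2 fold change (established over early) was 0.49 ± 0.21 (SE), with a false discovery rate (FDR, the Benjamini-Hochberg adjusted p of edgeR's quasi-likelihood test) of 0.0612. In WT mice the gene ranged from 58.8 to 136 CPM at the early and from 78.1 to 169 CPM at the established stage, so that the genotypes overlapped in *Fosl2* at either stage. The FDR of *Fosl2* depended on single early mice and was 0.0216, 0.0249 and 0.0452 without early replicate 4, 5 or 6, where the log2 fold changes of 0.60, 0.59 and 0.55 stayed below 1. With scaling by library totals, described below, its log2 fold change was 1.22 (FDR 2.98e-05). Markers of tenocytes were present in all transgenic mice: *Scx* (scleraxis) was at 6.64 CPM or more and *Mkx* (mohawk) at 109 CPM or more.

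Of 14953 genes tested, 1476 (9.87%) differed between stages by at least 1 on the log2 scale at an FDR of at most 0.05. Among these calls, 682 genes (4.56%) were higher and 794 (5.31%) were lower in established mice. The counts of the gene lists below are to be set against these shares. For example, the lower shares of the TGF-beta (7.69%), metalloproteinase (6.25%), chemokine (5.88%) and complement lists (5.0%) lay near the share of all genes. Without the limit on size, 6981 genes passed the FDR threshold, 3647 higher and 3334 lower, and the median log2 fold change of all genes was 0.03. The 7 established mice did not overlap with the 8 early mice in 2177 genes (14.6%), 943 of them higher and 1234 lower at the established stage. These ranges were separate for 758 of the called genes. Of the called genes, 1328 were protein-coding and 7 were long non-coding RNAs. The plot of stage difference against level shows that the most abundant genes of the tissue were among those that fell.

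**Figure D1:**
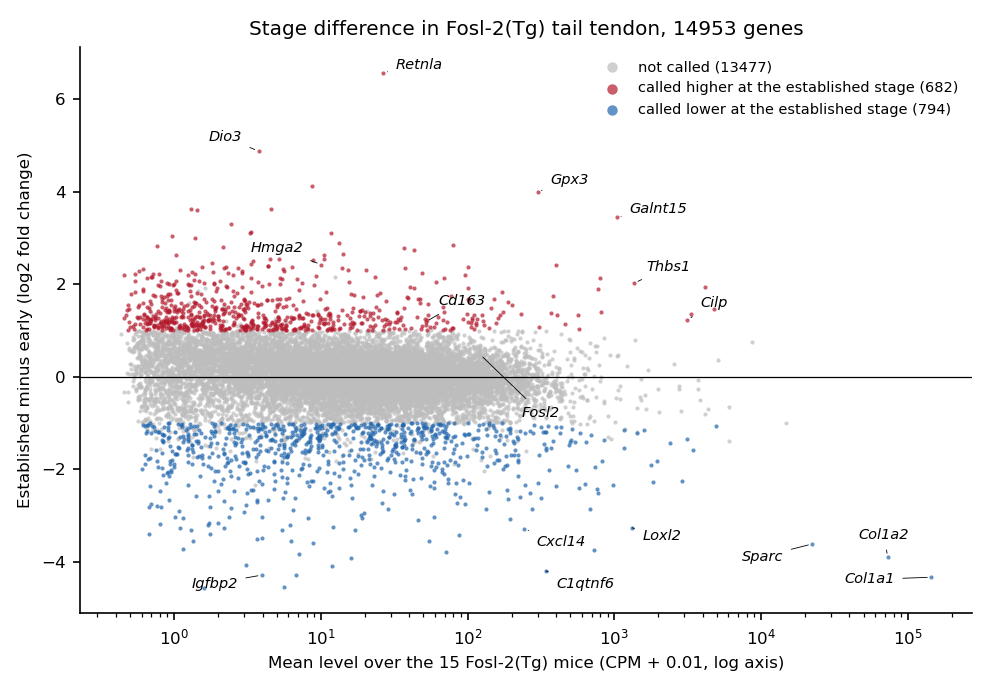
Stage difference in Fosl-2(Tg) tendon for each of 14953 genes: log2 fold change (established minus early) on the vertical axis against the mean level over the 15 mice in CPM, with 0.01 added, on a log axis. Red points are the 682 genes called higher, blue points the 794 called lower and grey points the rest; *Col1a1*, *Col1a2* and *Sparc* are called lower and lie at the far right, and *Retnla* lies at the top.

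A few collagen transcripts made up much of the early libraries. *Col1a1* alone took 12.71% to 27.22% of the raw counts in early mice and 0.1418% to 3.372% in established mice. Together with *Col1a2*, *Col3a1* and *Sparc*, it took a median of 34.28% of the counts at the early and 2.723% at the established stage. TMM scaling sets the bulk of genes to no net change, and its factors ranged from 0.689 to 0.903 in early and from 1.18 to 1.41 in established mice, without overlap. With scaling by library totals alone, the median log2 fold change of all genes moved to 0.757 and the calls split into 4524 higher and 237 lower, or 95.0% higher instead of 46.2%. Changes are therefore given relative to the bulk of genes. List counts with library totals are to be set against these 4524 higher and 237 lower calls. For the matrix, secretory, respiratory chain and IGF lists, a median that turned with library totals is named where the list is described. Medians also turned for the cell cycle (from -0.12 to 0.60), ribosomal protein (from -0.18 to 0.55) and glycolysis and hypoxia lists (from -0.24 to 0.48). So did those of the endothelial (from -0.53 to 0.19), Hox (from -0.21 to 0.51) and zinc and metal lists (from -0.16 to 0.56). All 682 genes called higher were also called with library totals. All 794 lower genes kept their sign with library totals, and 237 of them were still called. Library totals moved fold changes upward as a whole. The kept higher calls and the kept signs of lower genes largely follow from that shift and are not independent checks.

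Transcripts of the fibrillar collagens, which form the load-bearing fibrils, were lower in established mice. All 11 tested members had a negative fold change, with a median of -1.48, and 7 were called lower and none higher. The median stayed negative (-0.77) with library totals, where 5 were called lower. Summed over the list, fibrillar collagens ranged from 209940 to 587120 CPM in early mice and from 2378 to 49366 CPM in established mice. No established mouse reached the lowest early mouse.

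*Col1a1*, the major chain of type I collagen (ENSMUSG00000001506; GRCm39, chr11:94827050-94843868, plus strand), ranged from 137220 to 389120 CPM (median 265260) in early mice and from 989 to 28261 CPM (median 10241) in established mice. The highest established mouse lay below the lowest early mouse. Its log2 fold change was -4.33 ± 0.69 (SE; FDR 0.000131), which is 20.1-fold lower. Established replicates 1 and 5 had the lowest values, 1868 and 989 CPM, against 9787 CPM or more in the other established mice. *Col1a2*, its partner chain (chr6), fell from a median of 127650 CPM to 6886 CPM (log2 fold change -3.90 ± 0.60, FDR 9.76e-05). Both genes followed the same order of mice at the low end.

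Among the low-level fibrillar chains, *Col2a1* of cartilage collagen fell from 42.5 to 178 CPM in early mice to 2.96 to 17.7 CPM in established mice (log2 fold change -3.78 ± 0.40, FDR 4.24e-06). *Col11a2*, which sets fibril diameter, fell from a median of 1234 to 175 CPM (log2 fold change -2.42 ± 0.43, FDR 0.000324). Of 24 other collagens tested, 7 were lower and 1 was higher (median -0.61, which became 0.09 with library totals). *Col6a3* of the microfibrillar type VI collagen around cells ranged from 2815 to 6193 CPM in early and from 168 to 1609 CPM in established mice (log2 fold change -2.25 ± 0.39, FDR 0.000248). *Col8a1*, a network-forming chain, fell by 2.49 on the log2 scale (FDR 2.08e-06), without overlap. The collagen of the muscle-tendon junction, *Col22a1*, fell by 2.41 (FDR 0.00982), with overlap, and by 3.28 when established replicate 7 was left out. The exception in this list was *Col20a1*, which ranged from 5.84 to 8.05 CPM in early and from 11.6 to 21.8 CPM in established mice (log2 fold change 1.32 ± 0.14, FDR 3.99e-06).

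**Figure D2:**
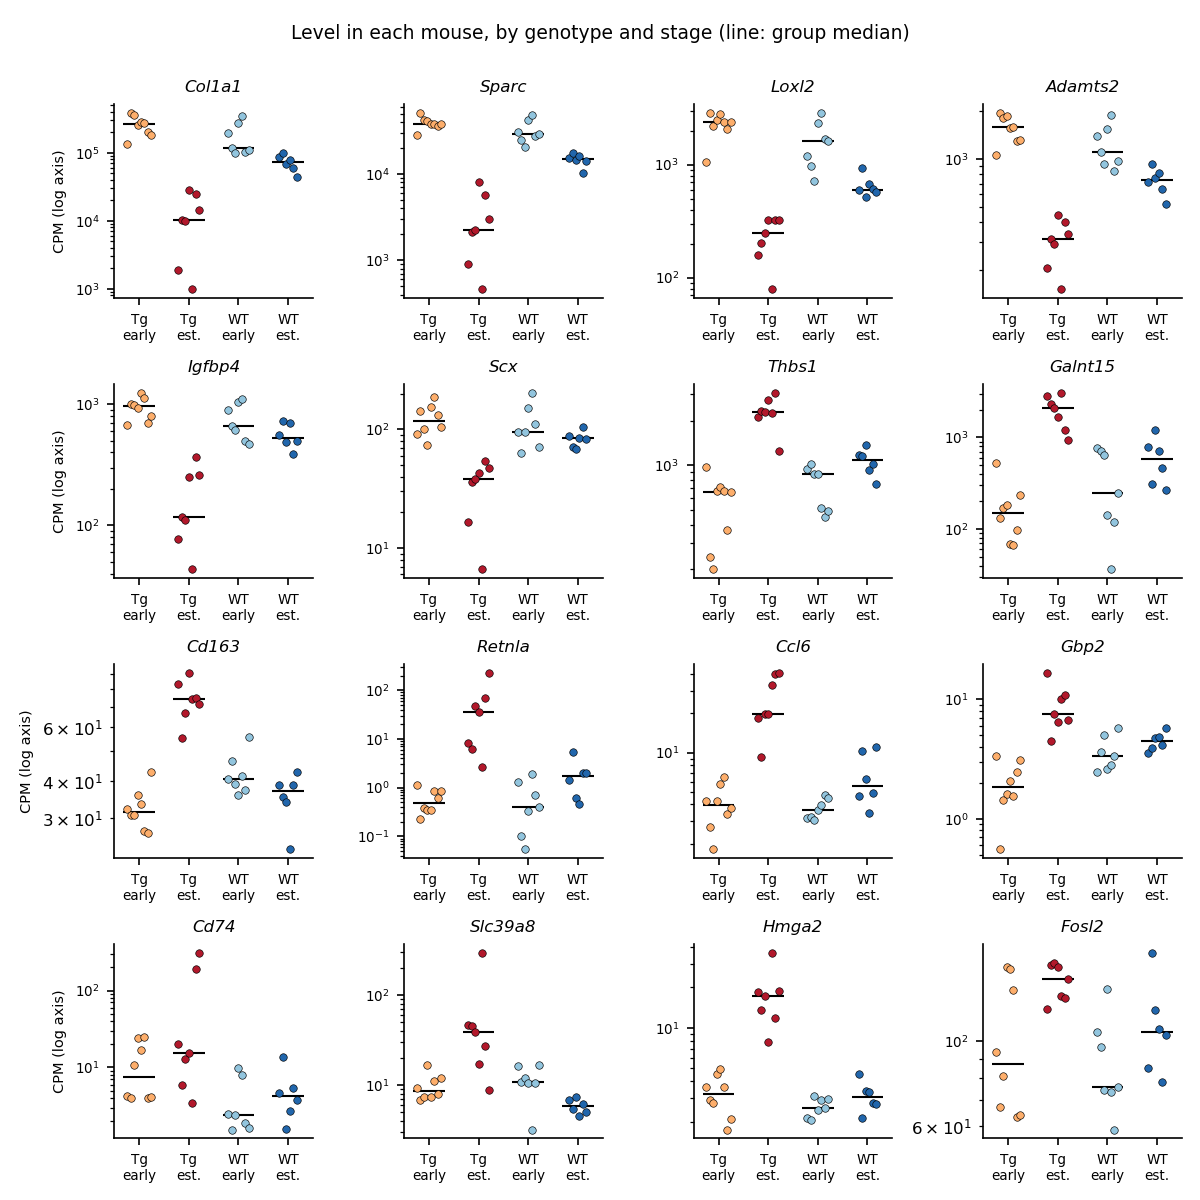
Level of 16 genes in each mouse in CPM on a log axis, for early and established (est.) Fosl-2(Tg) mice and for WT mice of both stages; each point is 1 mouse and each line a group median. *Col1a1*, *Sparc*, *Loxl2*, *Adamts2*, *Igfbp4* and *Scx* are lower in all established Fosl-2(Tg) mice than in all early ones, whereas *Cd74* is raised in 2 established mice and *Fosl2* overlaps between all groups.

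Genes that fold and modify procollagen fell with it. Of 20 tested, 11 were lower and 1 was higher (median -1.26, or -0.54 with library totals, where 6 were lower). *Sparc* (osteonectin), a collagen-binding glycoprotein, ranged from 28486 to 51401 CPM in early mice and from 463 to 8034 CPM in established mice (log2 fold change -3.61 ± 0.51, FDR 4.62e-05). *Fkbp14*, a prolyl isomerase of the endoplasmic reticulum, fell by 2.28 (FDR 1.6e-05), and *Creb3l1*, a transcription factor that promotes type I collagen secretion in bone, fell by 2.15 (FDR 0.000227). The collagen chaperone *Serpinh1* (Hsp47), named after its values were seen, ranged from 523 to 897 CPM in early and from 97.1 to 432 CPM in established mice (log2 fold change -1.48 ± 0.29, FDR 0.000579). None of these genes overlapped between the stages.

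Enzymes that crosslink and trim collagen included further genes that fell. Of 10 crosslinking genes, 5 were lower and 1 was higher (median -0.95; with library totals 1 was lower, 2 were higher and the median was -0.23). *Loxl2*, a lysyl oxidase, ranged from 1044 to 2869 CPM in early and from 79.0 to 326 CPM in established mice (log2 fold change -3.26 ± 0.30, FDR 1.74e-06, 9.61-fold lower). *Lox* itself fell from a median of 4392 to 1603 CPM (log2 fold change -1.35 ± 0.16, FDR 1.08e-05), the lysyl hydroxylase *Plod1* fell by 1.68 (FDR 1.92e-05) and the transglutaminase *Tgm2* by 1.47 (FDR 0.000137). All were separate between stages. *Tgm1*, the transglutaminase of cornified epithelia, was the member that rose, from a median of 0.641 to 1.42 CPM (FDR 0.00305), with overlap, but had a log2 fold change of 0.22 (FDR 0.807) in males alone. Of 7 genes of procollagen trimming, 3 were lower and none higher (median -0.99, with library totals -0.28). The N-proteinase *Adamts2* fell from 1062 to 1952 CPM in early to 152 to 443 CPM in established mice (log2 fold change -2.34 ± 0.22, FDR 1.9e-06). *Bmp1*, a C-proteinase, fell by 1.59 (FDR 2.39e-05) and its enhancer *Pcolce* fell by 1.82 (FDR 1.5e-05). The ADAMTS family as a whole had 7 lower and no higher members of 14 (median -1.03), but 1 lower and 2 higher with library totals. Of 16 matrix metalloproteinases and their inhibitors, 1 was lower (*Mmp23*, log2 fold change -2.36 ± 0.33, FDR 3.83e-05) and 2 were higher, among them *Timp3*. *Timp3*, a matrix-bound inhibitor of these proteinases, ranged from 98.5 to 258 CPM in early and from 477 to 734 CPM in established mice (log2 fold change 1.75 ± 0.18, FDR 3.4e-06).

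Of 13 markers of tendon identity tested, 5 were called lower and none higher (median -1.01), while with library totals 4 were lower and 3 higher (median -0.34). Without early replicate 1, 2 were called higher, and 1 was without early replicate 3 or 5 or established replicate 5, 6 or 7. *Htra3*, a serine proteinase named after its values were seen, rose by 0.98 (FDR 0.00016), short of the limit on size. The 5 were *Col1a1*, *Kera*, *Ptx4*, *Scx* and *Cilp2*, of which *Scx* and *Cilp2* were named after their values were seen. *Scx*, the basic helix-loop-helix factor of tendon progenitors, ranged from 74.1 to 187 CPM in early and from 6.64 to 54 CPM in established mice (log2 fold change -1.84 ± 0.33, FDR 0.000367), without overlap. *Kera* (keratocan), a small leucine-rich proteoglycan, fell from a median of 1268 to 39.1 CPM (log2 fold change -3.75 ± 0.71, FDR 0.000473), and by 4.53 without established replicate 6. *Ptx4*, a pentraxin, fell by 2.04 (FDR 0.000702). *Cilp2* of the matrix between fibrils ranged from 1088 to 2586 CPM in early and from 70.4 to 1520.5 CPM in established mice (log2 fold change -1.54 ± 0.41, FDR 0.00614), and here the groups overlapped. The list of small leucine-rich proteoglycans, which bind fibrils and space them, had 3 lower members of 15 (median -0.48, turning to 0.19 with library totals), or 5 without established replicate 4. Besides *Kera* these were *Epyc* (log2 fold change -1.66, FDR 0.00166) and *Omd* (-1.48, FDR 0.00156; in males alone -1.34, FDR 0.0599). *Fmod* (fibromodulin), the member with the highest CPM, ranged from 13848 to 29207 CPM in early and from 618 to 20991 CPM in established mice, with a log2 fold change of -1.01 ± 0.45 that missed the threshold (FDR 0.0762). It passed the FDR threshold without established replicate 5 (log2 fold change -0.80, FDR 0.026) or replicate 4 (-1.33, FDR 0.0243).

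Cartilage-type genes and a set of further matrix glycoproteins were mixed. Of 11 chondrocyte and bone genes, 6 were lower and 2 higher (median -1.36, with library totals -0.66). *Matn3* (matrilin 3) fell from a median of 16.1 to 1.73 CPM (log2 fold change -2.47 ± 0.52, FDR 0.00112). *Acan* (aggrecan) fell from a median of 18.1 to 1.56 CPM (log2 fold change -2.08 ± 0.63, FDR 0.0127), or by 2.77 without established replicate 7, the mouse in which it reached 14.2 CPM. Of 27 matricellular and adhesive glycoproteins, 8 were lower and 4 higher (median -0.66, turning to 0.06 with library totals). The lower ones included *Ccn4* (Wisp1; log2 fold change -2.31 ± 0.31, FDR 3.14e-05). The higher ones included *Ccn5* (Wisp2), which ranged from 15.0 to 38.4 CPM in early and from 64 to 214 CPM in established mice (log2 fold change 2.05 ± 0.27, FDR 2.32e-05). *Thbs1* (thrombospondin 1), a glycoprotein that can activate latent TGF-beta, ranged from 200.2 to 972 CPM (median 667) in early and from 1248 to 3066 CPM (median 2300.4) in established mice (log2 fold change 2.02 ± 0.31, FDR 7.98e-05). All established mice lay above all early mice for both genes. Elastic fibre genes had 3 higher and 3 lower members of 18 (median -0.28, turning to 0.43 with library totals). *Fbln1* (fibulin 1) rose by 2.41 ± 0.43 (FDR 0.000316) and *Efemp1* (fibulin 3) by 1.00 ± 0.28 (FDR 0.00846), whereas *Mfap4* fell by 2.53 ± 0.68 (FDR 0.00614), or by 3.67 without established replicate 6. In males alone *Fbln1* had a log2 fold change of 0.99 (FDR 0.381) and *Efemp1* of 1.31 (FDR 0.0687), and no elastic fibre gene was called higher and 9 were called lower.

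The abundant genes that rose were not collagens. *Cilp*, a cartilage intermediate layer protein of the matrix, ranged from 1313 to 3349 CPM (median 1677) in early and from 3684 to 4991 CPM (median 4681) in established mice (log2 fold change 1.23 ± 0.19, FDR 8.67e-05). *Gsn* (gelsolin, an actin-severing protein) rose from a median of 2137 to 6698 CPM (FDR 0.000517), *Coch* (cochlin) from 1123 to 6874 CPM (FDR 0.00344) and *Myoc* (myocilin) from 1648 to 5416 CPM (FDR 0.00144). *Cilp* was separate between stages, whereas *Gsn*, *Coch* and *Myoc* overlapped through early replicate 1 alone, the early mouse with the highest level (for *Coch*, 6432 CPM). In males alone the log2 fold changes of *Gsn*, *Coch* and *Myoc* were 1.34 (FDR 0.0822), 0.96 (FDR 0.474) and 1.51 (FDR 0.0592). Without that mouse the log2 fold change of *Coch* was 2.62 instead of 1.95. *Galnt15*, which starts O-glycan chains on proteins, ranged from 67.6 to 528 CPM (median 151) in early and from 935 to 3052 CPM (median 2108) in established mice (log2 fold change 3.45 ± 0.43, FDR 1.8e-05, 10.9-fold higher). *Gpx3*, the secreted glutathione peroxidase, ranged from 15.9 to 72.7 CPM in early and from 353 to 778 CPM in established mice (log2 fold change 3.99 ± 0.34, FDR 1.22e-06). *Dio3*, which inactivates thyroid hormone, rose from a median of 0.153 to 4.74 CPM (log2 fold change 4.87 ± 0.69, FDR 4.7e-05). At the other end, *C1qtnf6*, a secreted C1q and TNF related protein, fell from a median of 658 to 27.4 CPM (log2 fold change -4.20 ± 0.45, FDR 4.67e-06), and *Cuzd1* from 10.1 to 0.353 CPM (log2 fold change -4.54 ± 0.43, FDR 2.21e-06).

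**Figure D3:**
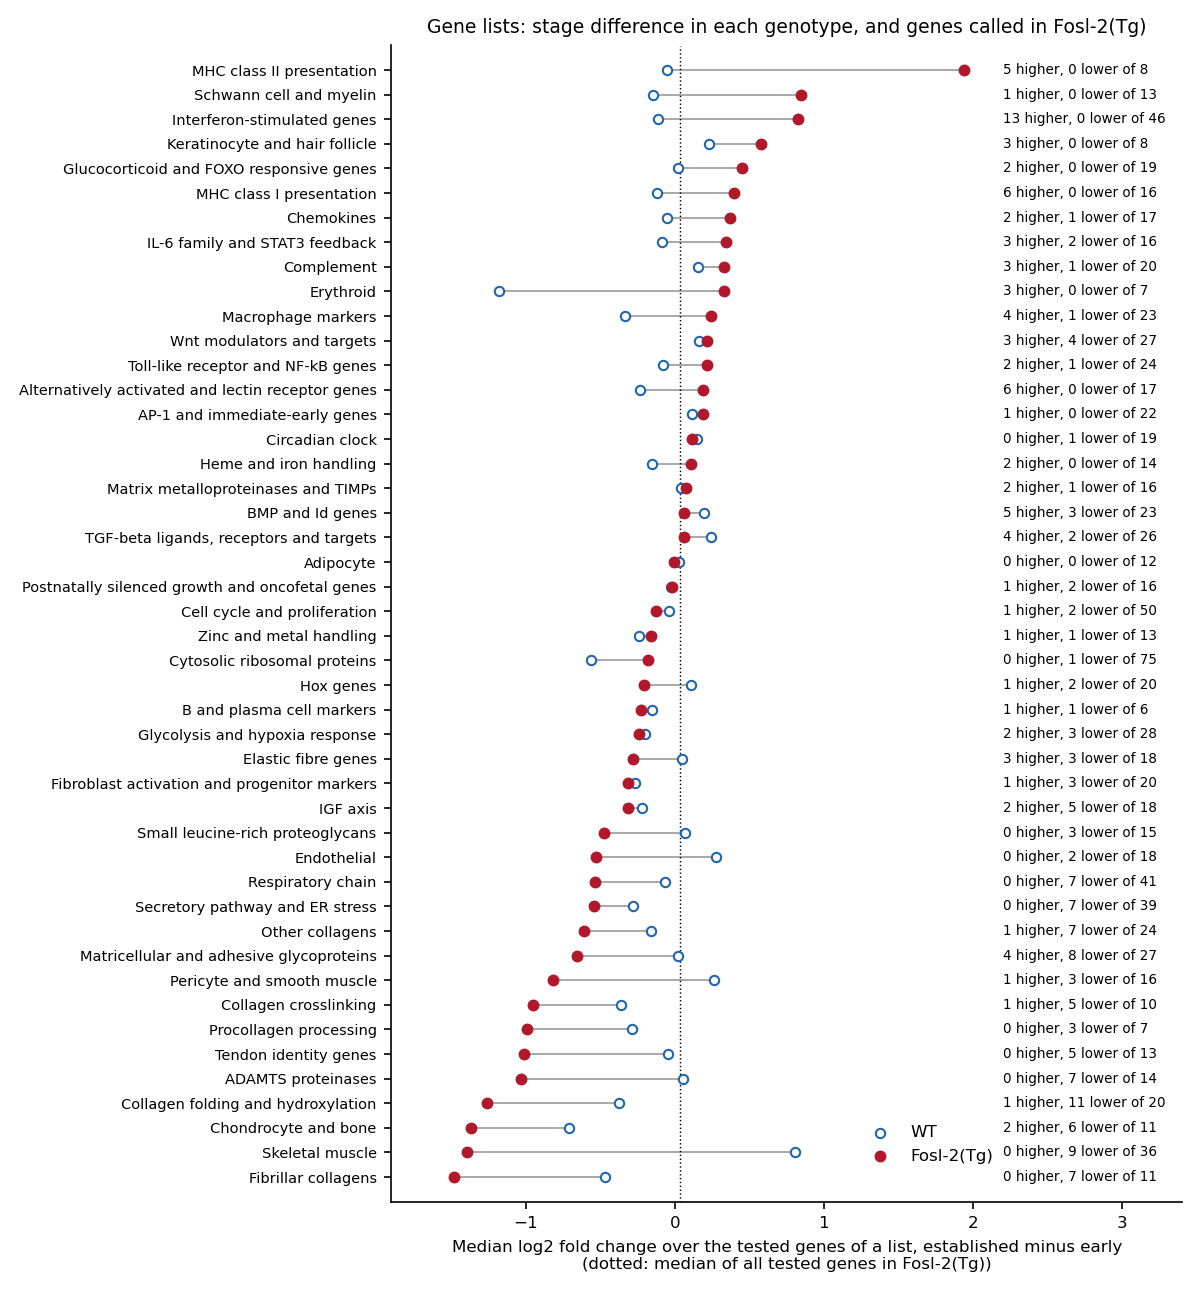
Median log2 fold change (established minus early) of the gene lists with at least 5 tested genes, in Fosl-2(Tg) mice (filled red) and WT mice (open blue); the text at the right gives how many tested genes were called higher and lower in Fosl-2(Tg) mice. Fibrillar collagens (-1.48) lie at the bottom with skeletal muscle and cartilage genes, and MHC class II (1.94) at the top.

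Genes of the secretory pathway and of the respiratory chain shifted by smaller amounts. Of 39 secretory and endoplasmic reticulum stress genes, 7 were called lower and none higher, and 24 passed the FDR threshold lower without the limit on size (median -0.54, turning to 0.18 with library totals). Their summed level was 5057 to 6566 CPM in early and 2869 to 4502 CPM in established mice. *Kdelr3*, a receptor that returns resident proteins to the endoplasmic reticulum, fell from 78.5 to 153 CPM to 9.38 to 42.3 CPM (log2 fold change -2.30 ± 0.26, FDR 7.5e-06). Of 41 respiratory chain genes, 7 were called lower and none higher, and 34 were lower at the FDR threshold alone (median -0.54, turning to 0.18 with library totals, where none was called). Without established replicate 2, 4 of them were called lower, and 2 were in males alone. The mitochondrially encoded *mt-Co1*, a subunit of cytochrome c oxidase, ranged from 4799 to 10334 CPM in early and from 1915 to 3863 CPM in established mice (log2 fold change -1.07 ± 0.20, FDR 0.000428), and *mt-Cytb* fell by 1.21 (FDR 4.71e-05). With library totals, *mt-Co1* was no longer called (log2 fold change -0.37, FDR 0.13), nor was it in males alone (-0.88, FDR 0.134). As a share of raw counts, the 13 mitochondrial genes had a median of 1.054% at the early and 0.9121% at the established stage. Of 75 cytosolic ribosomal proteins 1 was lower, and of 50 cell cycle genes 2 were lower and 1 was higher. The count of lower cell cycle genes rested on single mice: it was 11 without established replicate 7, 5 without early replicate 1, 4 without early replicate 7 or established replicate 6, and 16 without established replicates 6 and 7 together. The higher ones ranged from 0 to 3 when 1 mouse was left out. With library totals, 10 cell cycle genes were higher and 1 was lower, where 4524 of all 14953 genes were called higher.

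Macrophage markers were present in every transgenic mouse, with *Csf1r*, the receptor for colony-stimulating factor 1, at 151 CPM or more. Of 23 tested, 4 were higher and 1 was lower, with a median of 0.25 against 0.03 for all genes. *Cd163*, a scavenger receptor for hemoglobin, ranged from 27.0 to 42.6 CPM (median 31.6) in early and from 55.2 to 90.6 CPM (median 74.4) in established mice (log2 fold change 1.19 ± 0.11, FDR 2.08e-06). *Lyve1*, a hyaluronan receptor of lymphatic vessels and tissue-resident macrophages, rose from a median of 36.8 to 123 CPM (log2 fold change 1.75 ± 0.22, FDR 2.11e-05). For both genes all established mice were above all early mice. *Siglec1* (sialoadhesin) rose by 1.40 (FDR 0.000196) and *Timd4*, a receptor for dying cells that was named after its values were seen, by 1.04 (FDR 0.0141), both with overlap. In males alone *Siglec1* had a log2 fold change of 0.58 (FDR 0.316). The fractalkine receptor *Cx3cr1* fell from a median of 7.09 to 1.46 CPM (log2 fold change -2.43 ± 0.38, FDR 0.000102). The pan-leukocyte gene *Ptprc* ranged from 15.7 to 28.2 CPM in early and from 19.8 to 53.1 CPM in established mice, with overlap.

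Genes of alternatively activated macrophages and lectin receptors had 6 higher and no lower members of 17, among them *Retnla*, *Arg1* and *Mgl2*, while the median of the list was 0.19. *Retnla*, a secreted resistin-like protein (ENSMUSG00000061100; GRCm39, chr16:48662895-48664824, plus strand), ranged from 0.223 to 1.11 CPM (median 0.489) in early and from 2.60 to 225 CPM (median 35.4) in established mice. All established mice lay above all early mice, but the male was the lowest of them and replicate 7 the highest. The log2 fold change was 6.57 ± 0.91 (FDR 3.79e-05), or 5.57 without replicate 7. *Arg1* (arginase 1) ranged from 0.751 to 2.53 CPM in early and from 3.18 to 33.5 CPM in established mice (log2 fold change 2.54 ± 0.49, FDR 0.000602). Its fold change was 1.71 without established replicate 7, the mouse with 33.5 CPM. *Mgl2*, a galactose-type lectin, rose from a median of 3.20 to 18.8 CPM (log2 fold change 2.88 ± 0.45, FDR 0.000113), and by 2.03 without established replicates 6 and 7. In males alone its log2 fold change was 0.24 (FDR 0.719). With sex as a covariate *Retnla* (log2 fold change 2.14, FDR 0.316) and *Arg1* (2.05, FDR 0.0838) also missed the threshold.

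Of 17 chemokines, 2 were higher and 1 was lower. *Ccl6* ranged from 1.81 to 6.51 CPM in early and from 9.21 to 40.9 CPM in established mice (log2 fold change 2.66 ± 0.31, FDR 1.11e-05). *Ccl9*, a related myeloid chemokine, rose from a median of 16.7 to 37.5 CPM (log2 fold change 1.25 ± 0.18, FDR 5.31e-05). *Cxcl14*, a chemokine made by stromal and epithelial cells, ranged from 322 to 558 CPM in early and from 7.79 to 104 CPM in established mice (log2 fold change -3.29 ± 0.37, FDR 8.4e-06). The stages were separate in all 3 genes. The summed chemokine level, to which *Cxcl14* contributed most in early mice, was lower in established mice (156.19 to 370.03 CPM) than in early mice (449.64 to 680.34 CPM).

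Lists of innate and cytokine signalling held few calls with TMM scaling. Of 24 Toll-like receptor and NF-kB genes, 2 were higher (8.33%) and 1 was lower (4.17%), against 4.56% and 5.31% of all genes, and of 16 genes of the IL-6 family 3 were higher and 2 lower. Without the established male, replicate 5, 1 gene of each list was higher. Without established replicate 2, 2 Toll-like receptor and NF-kB genes were lower. With library totals, 11 Toll-like receptor and NF-kB genes were higher and none lower, and 8 IL-6 family genes were higher and 2 lower. In that setting 4524 of all 14953 genes were called higher. *Tlr4*, the receptor for bacterial endotoxin, ranged from 26.3 to 41.6 CPM in early and from 49.1 to 131 CPM in established mice (log2 fold change 1.12 ± 0.18, FDR 0.000115). *Il6ra*, the receptor subunit that binds IL-6, ranged from 16.9 to 28 CPM and from 31.0 to 75.4 CPM (log2 fold change 1.19 ± 0.17, FDR 4.34e-05). *Osmr*, the oncostatin M receptor, rose by 1.03 ± 0.19 (FDR 0.000366). The stages did not overlap in these genes, and the established male had the highest value in each.

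Interferon-stimulated genes were raised as a list. Of 46 tested, 13 were called higher and none lower, 32 were higher at the FDR threshold alone, and the median was 0.83. Their summed level was 239.88 to 315.77 CPM in early and 347.39 to 571.86 CPM in established mice, without overlap. In WT mice it was 291.74 to 480.69 CPM early (median 365.79) and 327.62 to 387.21 CPM established (median 354.74). The medians in Fosl-2(Tg) mice were 274.36 CPM early, below that of early WT mice, and 381.89 CPM established. The ranges of the genotypes overlapped at either stage. *Gbp2*, a guanylate-binding protein with paralogs of similar sequence, ranged from 0.556 to 3.33 CPM in early and from 4.50 to 16.5 CPM in established mice (log2 fold change 2.14 ± 0.31, FDR 5.79e-05). Class I antigen presentation had 6 higher and no lower members of 16 (median 0.39), or 3 higher without established replicate 1 and 2 higher and 1 lower in males alone. *Tap1*, a subunit of the peptide transporter, ranged from 2.84 to 5.34 CPM in early and from 7.86 to 20.8 CPM in established mice (log2 fold change 1.31 ± 0.21, FDR 0.000143). *Psmb9* of the immunoproteasome rose by 1.29 (FDR 0.00093). The class I gene *H2-Q4*, named after its values were seen and similar in sequence to other class I genes, rose by 1.03 (FDR 0.000225), with overlap. In males alone *Psmb9* (log2 fold change 0.92, FDR 0.232) and *H2-Q4* (0.97, FDR 0.0545) missed the threshold, as did *Tap1* with sex as a covariate (1.08, FDR 0.0538). The transgene is itself driven by a class I promoter, but the counted class I genes are endogenous ones.

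The class II list depended on a pair of mice. The 8 tested members had a median of 1.94 and 5 were called higher, but without established replicates 6 and 7 none was called and the median was -0.21. Without established replicate 7 alone none was called, without early replicate 1, 2, 3, 7 or 8 or established replicate 6 there were 2, and without early replicate 5 there were 3. *Cd74*, the invariant chain, ranged from 4.01 to 25.0 CPM (median 7.47) in early mice and was at 188 and 306 CPM in established replicates 6 and 7, against 3.46 to 20.4 CPM in the other established mice. Its log2 fold change was 2.75 ± 0.88 (FDR 0.0178), and -0.01 without these mice. *H2-Ab1* (log2 fold change 2.54, FDR 0.032) and *H2-Aa* (2.34, FDR 0.0467; named after its values were seen) likewise turned to -0.41 and -0.87. In males alone all 3 genes had negative fold changes.

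**Figure D4:**
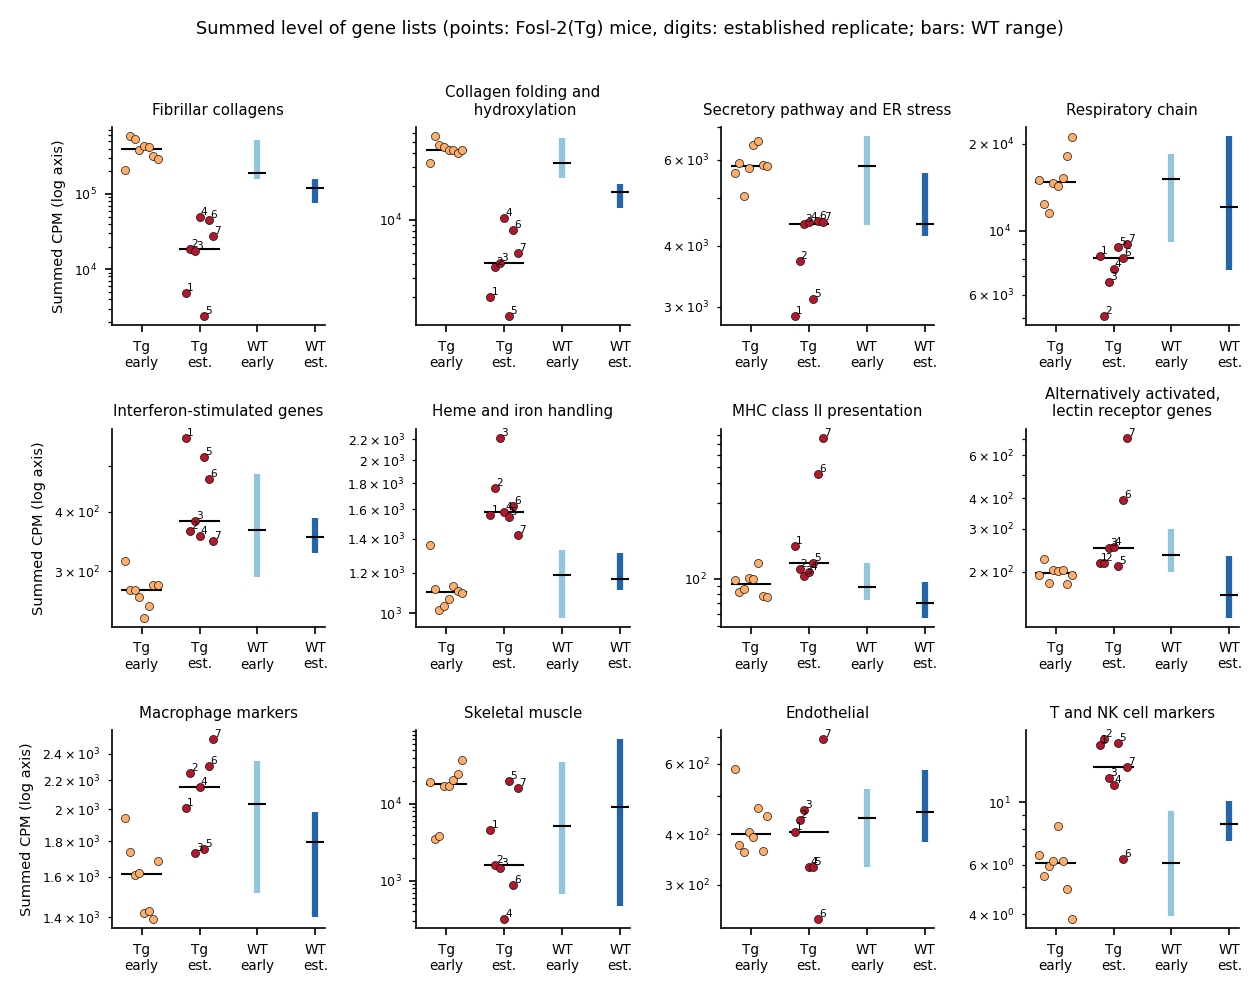
Summed CPM of 12 gene lists on log axes: points are Fosl-2(Tg) mice, early and established (est.), with the replicate number beside each established mouse, lines are medians, and bars are the range of WT mice. Fibrillar collagens are separate between stages, and MHC class II genes are raised in established replicates 6 and 7.

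Complement had 3 higher and 1 lower members of 20. *C3*, the central component, ranged from 17.8 to 104 CPM in early and from 35 to 314 CPM in established mice (log2 fold change 2.19 ± 0.44, FDR 0.00084), and *C4b* rose from a median of 10.5 to 46.6 CPM (log2 fold change 2.23, FDR 0.00428), or by 1.38 (FDR 0.0391) without established replicates 6 and 7. Both overlapped between stages. In males alone *C3* had a log2 fold change of -0.021 (FDR 0.986) and *C4b* of 1.80 (FDR 0.173).

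Growth factor pathways had members in both directions. Of 26 TGF-beta genes, 4 were higher (15.4%) and 2 lower (7.69%), against 4.56% and 5.31% of all genes. *Inhbb*, a subunit of activin B, ranged from 12.3 to 66.7 CPM in early and from 74.1 to 153 CPM in established mice (log2 fold change 2.13 ± 0.32, FDR 6.91e-05), and *Fst* (follistatin), which binds activins, rose by 2.02 (FDR 4.5e-05). *Tgfbr3* (betaglycan), a co-receptor, rose from a median of 444 to 1220.4 CPM (log2 fold change 1.39 ± 0.16, FDR 9.96e-06). All 3 were separate between stages. *Nrep* fell by 1.65 (FDR 0.00155). Of 23 BMP and Id genes, 5 were higher and 3 lower, the latter including *Id2*, an inhibitor of helix-loop-helix factors (log2 fold change -1.30, FDR 0.000782). Of 27 Wnt genes, 3 were higher and 4 lower. *Wif1*, a secreted Wnt inhibitor, ranged from 877 to 1359.6 CPM in early and from 82.5 to 596 CPM in established mice (log2 fold change -1.95 ± 0.28, FDR 5.6e-05).

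The insulin-like growth factor (IGF) axis had 5 lower and 2 higher members of 18 (median -0.32, turning to 0.38 with library totals). *Igfbp4*, an IGF-binding protein, ranged from 668 to 1234 CPM in early and from 43.6 to 364 CPM in established mice (log2 fold change -2.41 ± 0.37, FDR 9.3e-05). *Igfbp2* fell from a median of 6.90 to 0.203 CPM (log2 fold change -4.28 ± 0.45, FDR 4.24e-06) and *Stc1*, an inhibitor of the proteinase that cleaves IGF-binding proteins, from 2.93 to 0.217 CPM (log2 fold change -3.39, FDR 1.61e-06). All 3 were without overlap.

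The AP-1 and immediate-early list, to which *Fosl2* belongs, showed few calls with TMM scaling. Of 22 tested, 1 was higher (*Maff*, log2 fold change 1.04 ± 0.22, FDR 0.00112) and none lower, with a median of 0.19. The higher count ranged from 0 to 3 when 1 mouse was left out. With library totals, 10 were called higher and none lower (median 0.92), where 4524 of all 14953 genes were called higher. *Klf6* rose by 0.97 (FDR 2.39e-05), short of the limit on size. Among growth genes silenced after birth, *Hmga2*, an architectural chromatin protein, ranged from 1.76 to 4.96 CPM in early and from 7.81 to 35.9 CPM in established mice (log2 fold change 2.43 ± 0.30, FDR 1.41e-05), whereas *Ptn* (pleiotrophin), a secreted growth factor, fell from a median of 33.2 to 2.94 CPM (log2 fold change -2.34 ± 0.51, FDR 0.00138). The stages did not overlap in either.

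Metabolic and stress responses gave single genes. Of 19 glucocorticoid and FOXO responsive genes, 2 were higher: *Txnip*, an inhibitor of thioredoxin, ranged from 193 to 498 CPM in early and from 604 to 2284 CPM in established mice (log2 fold change 1.90 ± 0.27, FDR 5.29e-05), and *Klf15* rose by 2.31 (FDR 0.000182). The established male had the highest value of both, 2284 and 85.2 CPM. In the list of zinc and metal genes, the importer *Slc39a8* (ZIP8) rose from a median of 8.66 to 38.7 CPM (log2 fold change 2.78 ± 0.59, FDR 0.00125). The male was at 292 CPM, and without it the fold change was 1.63. *Slc39a13* (ZIP13), a zinc transporter of the secretory pathway, fell by 1.36 (FDR 2.46e-05). *Fth1* (ferritin heavy chain) ranged from 252 to 556 CPM in early and from 582 to 1284 CPM in established mice (log2 fold change 1.33 ± 0.18, FDR 3e-05). Of 28 glycolysis and hypoxia genes, 2 were higher and 3 lower, but 8 were lower without established replicate 7, 6 without established replicate 5 or early replicate 3 and 5 without early replicate 2. The vasoactive peptide gene *Adm* rose by 2.28 (FDR 0.000152) and *Ndrg1* by 1.62 (FDR 1.48e-05), while the lactate dehydrogenase gene *Ldha* fell by 1.15 (FDR 0.000587), a call lost with library totals (log2 fold change -0.45, FDR 0.0789). Of 20 Hox genes, which set position along the body axis, the posterior *Hoxb9* (log2 fold change -2.21, FDR 3.4e-06) and *Hoxb13* (-1.42, FDR 3.47e-05) were lower and 1 was higher.

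Because Fosl-2 is an AP-1 factor, the 250 bases before the start site were searched on both strands for the AP-1 letters TGANTCA. A RefSeq promoter (GRCm38.p6) was at hand for 10360 of the 14953 tested genes, and the 8221 genes with exactly 1 promoter were used. The letters were present in 347 of these promoters (4.22%), in 27 of 336 of the genes called higher (8.04%) and in 16 of 418 of the genes called lower (3.83%). Shares for NF-Y (CCAAT) were 36.2% of all, 33.3% of higher and 35.4% of lower genes. They were 10.7%, 14.9% and 9.09% for CHR (TTTGAA), 2.55%, 4.46% and 3.35% for the interferon element, and 8.15%, 5.65% and 9.33% for the E-box (CACGTG). A match is a run of letters and was not tested as a binding site. The following windows belong to genes described here and were not drawn at random, with AP-1 and CCAAT letters in capitals. All windows shown for genes that rose hold AP-1 letters, whereas 27 of 336 promoters of genes called higher do. Matches to the other motifs, such as the interferon element in the *Gbp2* window, are left in lower case. *Galnt15*, *Ccl9*, *Gbp2* and *Efemp1* rose, *C1qtnf6* and *Col1a2* fell, and *Col1a2* holds CCAAT but no AP-1 letters.
Galnt15 (chr14:32028853-32029102, plus strand): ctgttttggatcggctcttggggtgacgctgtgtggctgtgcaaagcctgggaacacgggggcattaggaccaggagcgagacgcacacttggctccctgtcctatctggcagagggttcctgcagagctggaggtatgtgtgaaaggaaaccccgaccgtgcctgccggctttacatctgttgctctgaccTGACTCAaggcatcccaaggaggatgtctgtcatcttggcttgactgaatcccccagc
Ccl9 (chr11:83578637-83578886, minus strand): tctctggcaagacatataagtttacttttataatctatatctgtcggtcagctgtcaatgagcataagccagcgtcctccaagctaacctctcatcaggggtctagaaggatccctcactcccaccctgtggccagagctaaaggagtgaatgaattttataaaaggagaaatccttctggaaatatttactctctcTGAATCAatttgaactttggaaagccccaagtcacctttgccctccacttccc
Gbp2 (chr3:142620413-142620662, plus strand): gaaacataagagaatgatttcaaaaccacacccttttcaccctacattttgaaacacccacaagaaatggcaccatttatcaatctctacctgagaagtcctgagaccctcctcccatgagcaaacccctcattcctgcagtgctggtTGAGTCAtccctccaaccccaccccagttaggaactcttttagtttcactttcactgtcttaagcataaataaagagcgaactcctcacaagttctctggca
Efemp1 (chr11:28852955-28853204, plus strand): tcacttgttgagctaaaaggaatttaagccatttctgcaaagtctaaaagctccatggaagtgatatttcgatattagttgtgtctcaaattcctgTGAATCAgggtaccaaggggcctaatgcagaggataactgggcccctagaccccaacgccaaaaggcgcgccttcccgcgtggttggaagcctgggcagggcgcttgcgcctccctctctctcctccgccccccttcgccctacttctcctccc
C1qtnf6 (chr15:78529652-78529901, minus strand): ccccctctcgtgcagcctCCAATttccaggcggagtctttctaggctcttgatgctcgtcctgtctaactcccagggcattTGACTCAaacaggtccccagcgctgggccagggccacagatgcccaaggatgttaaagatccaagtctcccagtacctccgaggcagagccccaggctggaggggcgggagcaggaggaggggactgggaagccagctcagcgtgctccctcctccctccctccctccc
Col1a2 (chr6:4505368-4505617, plus strand): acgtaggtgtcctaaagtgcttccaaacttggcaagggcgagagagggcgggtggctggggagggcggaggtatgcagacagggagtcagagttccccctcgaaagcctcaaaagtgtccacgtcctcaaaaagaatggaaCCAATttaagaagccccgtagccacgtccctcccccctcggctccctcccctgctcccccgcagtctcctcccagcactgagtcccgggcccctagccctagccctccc

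Markers of other cell types differed between the stages in several lists, and their part in the results above was not tested. Skeletal muscle genes were lower in 9 of 36 (median -1.39), in 25 without established replicate 5, and in none in males alone, where the median was 0.42. Their summed level spread from 3483.6 to 36806 CPM in early and from 314.79 to 20172 CPM in established mice. *Myl1*, a myosin light chain, had a log2 fold change of -2.59 (FDR 0.0153), or -3.72 without established replicate 5 and -0.49 (FDR 0.756) in males alone. Erythroid genes had 3 higher members of 7, all globins that share sequence. *Hbb-bs* ranged from 0.587 to 2.06 CPM in early and from 1.08 to 64.6 CPM in established mice (log2 fold change 4.13, FDR 0.000358), or 3.27 without established replicate 4. *Hba-a1* (2.34, FDR 0.00606) and *Hba-a2* (3.61, FDR 0.000576) fell to 1.46 and 2.93 without the same mouse. Endothelial genes had 2 lower members of 18, keratinocyte genes 3 higher of 8 and Schwann cell genes 1 higher of 13. T and NK cell markers summed to 3.84 to 8.20 CPM in early and 6.29 to 16.7 CPM in established mice. The defining genes of T cells (*Cd3e*) and basal keratinocytes (*Krt14*) were at 0.289 CPM or less in every transgenic mouse.

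The WT mice of the same cohorts differed in stage, age and sex much as the transgenic mice did. However, libraries 49 to 52 (early WT replicates 1 to 3 and early Fosl-2(Tg) replicate 1) lay nearer to established mice in some named genes. *Galnt15* was at 758, 704, 637 and 528 CPM in them, against 36.4 to 248 CPM in other early mice. *Loxl2* was at 1192.5, 976, 710 and 1044 CPM, against 1614 CPM or more. The early cohorts of the genotypes thus differed in make-up, and its part in the differences below was not tested. In WT, 201 of 15121 genes (1.33%) were called between stages, 85 higher and 116 lower. Of the 682 genes higher in established Fosl-2(Tg) mice, 579 of 654 tested in WT had the same sign there and 49 were called. Of the 794 lower genes, 639 of 785 had the same sign and 79 were called. The median log2 fold change of the higher genes was 1.30 in Fosl-2(Tg) and 0.45 in WT mice, and that of the lower genes -1.47 and -0.50. The difference of the stage effect between genotypes passed the FDR threshold in 1161 of 15540 genes (7.47%). Among these were 181 of the higher and 288 of the lower genes, each with a difference in the direction of the Fosl-2(Tg) change, and none in the opposite direction. These genes were chosen for their change in the same Fosl-2(Tg) mice. That choice favours a larger median in Fosl-2(Tg) than in WT mice and a difference in this direction, so neither is independent support.

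The named genes varied in how their stage difference compared with that of WT mice. *Col1a1* fell by 4.33 in Fosl-2(Tg) and had a log2 fold change of -1.30 (FDR 0.0557) in WT mice, a difference of -3.04 (FDR 0.013). In early mice its median was 265000 CPM in Fosl-2(Tg) and 119000 CPM in WT mice, with overlap. In established mice the medians were 10200 and 74400 CPM, without overlap. The difference thus takes in the early as well as the established levels. *Sparc* (difference -2.49, FDR 0.00937), *Loxl2* (-1.95, FDR 0.00702) and *C1qtnf6* (-2.81, FDR 0.00399) also fell further in Fosl-2(Tg) mice. *Cd163* had a fold change of -0.25 in WT mice and a difference of 1.44 (FDR 6.74e-05), and *Hmga2* of 0.27 and 2.16 (FDR 0.00198). *Retnla* differed by 5.07 (FDR 0.0138). By contrast, *Igfbp2* fell by 4.59 and *Cuzd1* by 4.52 in WT mice (FDR 0.0121 for each), with differences of 0.28 (FDR 0.875) and -0.02 (FDR 0.993). *Gpx3* rose by 2.72 in WT mice (FDR 0.0121), with a difference of 1.27 (FDR 0.171). These FDRs do not show that the genotypes acted alike.

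**Figure D5:**
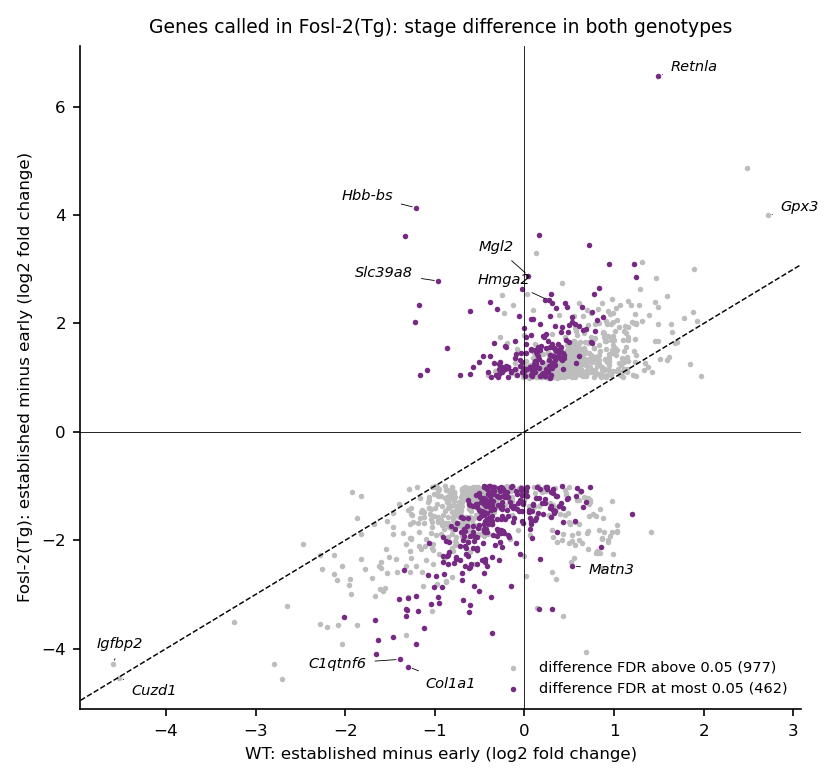
Stage difference (established minus early, log2 fold change) in Fosl-2(Tg) mice against that in WT mice for the 1439 called genes also tested in WT; purple points are the 462 genes whose difference between genotypes passed an FDR of 0.05, grey points the other 977, and the dashed line marks equal change. *Col1a1* lies well below the line, *Retnla* above it, and *Igfbp2* and *Cuzd1* near it.

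The 1 established male is the only established transgenic mouse of the sex of the early group. It lay beyond the range of the 8 early males, on the side of the call, in 578 of the 682 higher genes (84.8%) and in 680 of the 794 lower genes (85.6%). Among all genes it lay above the early range in 29.2% and below it in 30.5%. Because this mouse was among those whose values made the calls, its shares among called genes are raised by that selection. It was on the opposite side in 3 of the higher and in none of the lower genes. In the fit of males alone, where this mouse is assumed to vary like the early mice, 660 higher and 785 lower genes kept their sign and 416 and 583 were still called. Of the 101 named genes, 14 no longer passed the FDR threshold in that fit and 4 changed sign. For *Col1a1* the male had the lowest level of all transgenic mice, 989 CPM. For the class II gene *Cd74*, it was at 3.46 CPM, below every early male.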

How the data were processed

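Tail tendons were sequenced with 1 library per mouse, and the labels gave genotype, stage, sex and replicate number. Per the labels and methods, the authors used STAR for alignment (GRCm39) and featureCounts for counting. They deposited whole-number counts per gene without normalization. The strand setting is not given in the sources used here, so overlapping or near-identical genes are uncertain. Counts were scaled by TMM in edgeR 4.0.16 (R 4.3.3) after filterByExpr (minimum count 10, minimum total 15), and the 15 Fosl-2(Tg) libraries were compared by the quasi-likelihood test of edgeR with no covariate. Benjamini-Hochberg adjustment covered the 15470 genes tested, including 459 on X, 4 on Y and 54 unplaced genes that were then left out. Calls needed an FDR no higher than 0.05 and a log2 fold change no smaller in size than 1. P-values measure the spread between these mice. The WT effect was fitted in 13 libraries and the difference between genotypes as an interaction in 28. Voom used limma 3.58.1, and CPM values came from edgeR. A prior count of 2 was set only for log CPM values, which served to find values apart and to compare replicate numbers. The depth ran from 9664327 to 34236725 counts per transgenic mouse, so genes near 0 CPM rest on few reads. The closest pair of libraries of a group differed beyond sampling noise (chi-square per degree of freedom 7.02).

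The gene lists and members were chosen with earlier results of these data known. Genes were named by rule: the calls with the largest fold changes and no overlap between stages, up to 3 called members per direction and the most abundant member of each list, the largest differences between genotypes, the AP-1 list, and the most abundant calls. Of 227 genes that met the rule, 94 are named and the others are not reported here, and 7 further genes were named after their values were seen. Alternatives were DESeq2 (version 1.42.0 here; the authors used DESeq2 too), RLE scaling, other filters, a replicate block, voom with sample weights, sex as a covariate, males only, established females only, all 28 libraries with and without sex, removal of muscle, skin and blood genes or of X and Y genes, and each library left out. Scaling by library totals and leaving out established replicates 6 and 7 were chosen after seeing the data. The fit of the 15 libraries and the interaction had been tested on simulated data. Figures were drawn with matplotlib 3.10.9.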

Additional observations from a re-analysis of the deposited data

Results flagged for a closer look

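In 26 of 202 groups of values of the named genes, 1 mouse stood apart by Dixon's criterion at the 95% level. Chance flags about 1 in 20 groups. Early replicate 1 gave 13 of the 16 values in the early group and the established male, replicate 5, gave 6 of the 10 in the established group. The gap to the nearest mouse, as a share of the range of the group, is given for each.

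In the early group, the values apart were *Col22a1* in early replicate 2 (lowest, 0.592), *Loxl2* in early replicate 1 (lowest, 0.678), *Ccn4* in early replicate 1 (lowest, 0.891), *Fbln1* in early replicate 1 (highest, 0.549), *Mfap4* in early replicate 1 (lowest, 0.776), *Kdelr3* in early replicate 1 (lowest, 0.614), *Igfbp2* in early replicate 1 (lowest, 0.621) and *Stc1* in early replicate 1 (lowest, 0.542). Further ones were *Timd4* in early replicate 2 (lowest, 0.610), *C3* in early replicate 1 (highest, 0.533), *Klf15* in early replicate 4 (highest, 0.613), *Fth1* in early replicate 1 (highest, 0.605), *Coch* in early replicate 1 (highest, 0.593), *Myoc* in early replicate 1 (highest, 0.528), *Cuzd1* in early replicate 1 (lowest, 0.786) and *C1qtnf6* in early replicate 1 (lowest, 0.595). In the established group they were *Fmod* in established replicate 5 (lowest, 0.649), *Ptx4* in established replicate 5 (lowest, 0.618), *Ccn5* in established replicate 5 (highest, 0.576), *Thbs1* in established replicate 7 (lowest, 0.580), *Arg1* in established replicate 7 (highest, 0.647), *Tlr4* in established replicate 5 (highest, 0.593), *Osmr* in established replicate 5 (highest, 0.642), *Tap1* in established replicate 1 (highest, 0.837), *Tgfbr3* in established replicate 7 (lowest, 0.684) and *Nrep* in established replicate 5 (lowest, 0.609).

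The stage effect differed between Fosl-2(Tg) and WT mice in 56 named genes by edgeR's interaction test at an FDR of at most 0.05. The value is the log2 difference of the stage effects, Fosl-2(Tg) minus WT. It was positive for *Thbs1* (1.49), *Retnla* (5.07), *Arg1* (2.24), *Mgl2* (2.83), *Cd163* (1.44), *Siglec1* (1.85), *Ccl6* (1.83), *Ccl9* (1.54) and *Tlr4* (1.26). The same held for *Il6ra* (1.38), *Gbp2* (1.86), *Tap1* (1.19), *Psmb9* (1.56), *H2-Q4* (1.03), *Hmga2* (2.16), *Klf15* (1.83), *Txnip* (1.21) and *Slc39a8* (3.74). The same held for *Fth1* (0.99), *Adm* (1.94), *Ndrg1* (1.25), *Klf6* (0.87), *Htra3* (1.03), *Galnt15* (2.73), *Hbb-bs* (5.33), *Hba-a1* (3.50) and *Hba-a2* (4.95). It was negative for *Col1a1* (-3.04), *Col1a2* (-2.69), *Col2a1* (-2.32), *Col11a2* (-1.63), *Col6a3* (-1.60), *Col8a1* (-1.88), *Sparc* (-2.49), *Fkbp14* (-1.37) and *Creb3l1* (-1.62). Negative values were also found for *Loxl2* (-1.95), *Adamts2* (-1.58), *Pcolce* (-1.53), *Bmp1* (-0.91), *Epyc* (-1.73), *Scx* (-1.41), *Ptx4* (-1.95), *Matn3* (-3.0) and *Kdelr3* (-1.54). Negative values were also found for *Igfbp4* (-1.97), *Stc1* (-2.08), *Cxcl14* (-1.98), *Nrep* (-2.22), *Wif1* (-1.78), *Id2* (-1.50), *Ptn* (-2.51), *Slc39a13* (-0.94) and *C1qtnf6* (-2.81). Negative values were also found for *Hoxb9* (-1.37) and *Hoxb13* (-1.17). When 1 mouse was left out, 14 of these differences missed the threshold in at least 1 fit, and all 14 did without established WT replicate 2: *Bmp1*, *Col11a2*, *Col6a3*, *Creb3l1*, *Epyc*, *Fkbp14*, *Galnt15*, *H2-Q4*, *Hoxb13*, *Hoxb9*, *Klf15*, *Scx*, *Tap1* and *Txnip*. Early WT mice also mattered: 10 of the named differences missed the threshold without replicate 1, 13 without replicate 2 and 12 without replicate 3. With the established females alone 11 missed it, among them *Col2a1*, *Ndrg1* and *Thbs1*, which had passed without each single mouse.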

How the results depend on the processing

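Stage was tied to age, sex and library number, and depth limits genes near 0 CPM. Of 1476 genes called between stages (682 higher, 794 lower), DESeq2 gave 1028 higher, the fit without a filter 1133 higher, males only 2678 (1072 higher, 1606 lower) and sex as a covariate 2534, of which 1575 were lower. Scaling by library totals alone gave 4761 (4524 higher, 237 lower). Leaving out 1 mouse gave 1367 to 1701 calls, 622 to 744 higher and 736 to 961 lower. For the difference between genotypes (1161 genes, 541 higher and 620 lower), the established females alone gave 704 (290 higher) and the fit without a filter 360 higher. Leaving out 1 mouse gave 684 to 1809, with 301 to 854 higher and 383 to 955 lower; the count moved by over 1.5 times without early WT replicate 2 (684), 3 (720) or 5 (1809), established Fosl-2(Tg) replicate 1 (747) or established WT replicate 2 (756). The cause was not tested. List counts of 1 or 2 called genes ranged from 0 to 3 when 1 mouse was left out, except for the lower cell cycle genes (2 to 11).

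With males only, the log2 fold changes of *H2-Aa*, *H2-Ab1*, *Cd74* and *C3* turned to -2.13, -2.01, -1.75 and -0.021. With sex as a covariate they were -2.14, -2.02, -1.76 and -0.021. In males only 14 further named genes missed the FDR threshold (*Tgm1*, *Omd*, *Fbln1*, *Efemp1*, *mt-Co1*, *Mgl2*, *Siglec1*, *Psmb9*, *H2-Q4*, *C4b*, *Gsn*, *Coch*, *Myoc* and *Myl1*). With sex as a covariate 19 did, which were these without *Myoc* and *H2-Q4* and with *Col22a1*, *Acan*, *mt-Cytb*, *Retnla*, *Arg1*, *Tap1* and *Hba-a1*; in all 28 libraries with sex 15 did. Without established replicates 6 and 7, *H2-Aa*, *H2-Ab1* and *Cd74* were -0.87, -0.41 and -0.014. With the replicate number as a replicate block, 1550 genes were called (634 higher, 916 lower) and 1119 differed between genotypes (507 higher, 612 lower); 8 of the named differences missed the threshold, among them *Retnla* (FDR 0.0515) and *Col11a2* (FDR 0.0615). The numbers share no stated origin, and of 7 pairs 3 had a correlation of deviations over 0.1 (range -0.138 to 0.295), with 1 mouse closest to its own number.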

Other observations

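The summed level of the AP-1 and immediate-early list was uneven among the early Fosl-2(Tg) mice. It was at 1604.5, 1830.9 and 1528.2 CPM in replicates 4, 5 and 6 and between 800.19 and 1287.4 CPM in the other early mice, against 1048.6 to 1883.4 CPM in the established mice. The same early replicates were the ones without which the difference of *Fosl2* between stages passed the FDR threshold. They had the highest *Fosl2* of the early mice (156, 154 and 136 CPM, against 93.4 CPM or less). Leaving out any of them thus lowers the early mean, and *Fosl2* is itself in the list, so the match is not an independent observation. Glucocorticoid and FOXO responsive genes were also highest in these replicates, at 3842.8, 3143.1 and 2589.3 CPM, against 1871 CPM or less in the other early mice.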
